A study of Homo sapiens with 8 samples.

Results

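The genes described here supply the cell with amino acids and polyamines and load amino acids onto transfer RNA. They were taken by name as 40 genes in 4 classes: 8 amino acid carriers of the plasma membrane, 10 enzymes of amino acid synthesis, 5 enzymes of polyamine metabolism and 17 cytosolic aminoacyl-tRNA synthetases. Each gene was read from 1 probe set, the brightest on average over the 8 arrays, and all 40 were measured among the 19775 genes tested. All 40 also had a mean intensity of at least 100, which 10792 of the genes reached, so shares among these brighter genes are given beside those among all genes.

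All RNA came from CUTLL1, an established human cell line from a T-cell acute lymphoblastic leukemia in which NOTCH1 signalling is active, grown in medium with serum and treated for 48 h. There were 4 groups of 2 Affymetrix arrays each: PF-03084014 at 1 microM, dexamethasone at 1 microM, both compounds together at 1 microM each (the combination), and the vehicle DMSO. PF-03084014 is an inhibitor of gamma-secretase, the protease that frees the active part of NOTCH receptors. Dexamethasone is a glucocorticoid drug. The design compares each compound and their combination with DMSO, and with each other, in this 1 cell line. Within a group the labels number the arrays as replicas without naming separate cultures, so a p-value here reflects only the spread between arrays, which may be technical.

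Carriers bring amino acids across the plasma membrane, often in exchange for another amino acid, and some work as a pair with the heavy chain SLC3A2. Cells also make serine, proline, aspartate, asparagine and arginine themselves, and turn ornithine into the polyamines putrescine, spermidine and spermine, which bind nucleic acids. Aminoacyl-tRNA synthetases join each amino acid to its transfer RNA for translation. In T-cell leukemia NOTCH1 is known to induce MYC, a regulator of many growth genes that binds the E-box CACGTG, while the factor ATF4 is known to raise carriers, synthesis enzymes and synthetases when amino acids are short, through amino acid response elements with the core TGATGNAA.

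Both sequences occur near the start sites of these genes. RefSeq windows of GRCh38.p14, which run from 250 bases before to 50 bases after an annotated start, were matched by symbol for 34 of the 40 genes (54 windows); SLC7A11, PSPH, PYCR1, LARS1, VARS1 and YARS1 had none. TGATGNAA, searched on both strands, was found in 14 of the 34 genes, or 41.2%, against 4.46% of 27305 genes with a window. It was found in 5 of 7 carriers, 3 of 8 synthesis enzymes, 0 of 5 polyamine enzymes and 6 of 14 synthetases. The palindrome CACGTG was found in 8 of the 34, or 23.5%, against 8.77% of all genes, and 4 of these 8 were ASS1, ALDH18A1, ODC1 and IARS1. As genes with several starts have several windows, the shares of windows are closer: 25.9% against 3.62% for TGATGNAA and 14.8% against 7.26% for CACGTG. Matches of the 2 motifs shared bases in 0 of the 54 windows. The stretches below are shown because their genes carry the results that follow; each is written 5′ to 3′ along its gene, with the match to the motif, or to its reverse complement, in capitals.
ASNS, chr7:97872444-97872501, minus strand: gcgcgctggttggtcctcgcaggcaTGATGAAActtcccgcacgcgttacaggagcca
BCAT1, chr12:24949117-24949174, minus strand: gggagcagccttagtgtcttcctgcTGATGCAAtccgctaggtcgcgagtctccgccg
AARS1, chr16:70289661-70289718, minus strand: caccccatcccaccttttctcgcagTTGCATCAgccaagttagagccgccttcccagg
IARS1, chr9:92293698-92293735, minus strand: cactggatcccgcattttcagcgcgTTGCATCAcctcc
IARS1, chr9:92293853-92293908, minus strand: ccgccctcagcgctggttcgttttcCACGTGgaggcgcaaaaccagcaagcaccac
ASS1, chr9:130444865-130444920, plus strand: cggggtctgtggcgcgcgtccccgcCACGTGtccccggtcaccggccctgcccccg
ALDH18A1, chr10:95656817-95656872, minus strand: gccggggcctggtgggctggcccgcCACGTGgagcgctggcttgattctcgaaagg
ODC1, chr2:10448013-10448066, minus strand: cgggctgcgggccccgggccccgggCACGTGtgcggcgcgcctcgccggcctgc
SRM, chr1:11060187-11060242, minus strand: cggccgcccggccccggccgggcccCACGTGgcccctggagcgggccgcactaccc
The ASNS match starts 68 bases before its annotated start, the ASS1 match 71 bases before and the SRM match 199 bases before. IARS1 and BCAT1 were among the genes that held both motifs. A match describes these letters and is not a measured binding site.

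The arrays and labels were checked first. Median intensity lay between 61.8 and 63.9 on 7 arrays and was 76.3 on the second combination array, which stood apart: it was the lowest of the 8 arrays for 28 of the 40 genes, as for 21% of all genes and 31.9% of the brighter genes. The first DMSO array was the highest of the 8 for 19 of the 40, as for 9.4% of all genes and 9.28% of the brighter ones. The NOTCH targets NRARP, DTX1 and HES1 fell with PF-03084014 (log2 differences -2.66, -2.18 and -1.74) and with the combination (-3.31, -2.10 and -2.20), and the glucocorticoid targets TSC22D3 and FKBP5 rose by 0.68 to 3.34 with dexamethasone and by 1.01 to 3.84 with the combination, so the labels matched the treatments. All 11 T-lineage markers measured were at a mean intensity of at least 100, while 3 of 15 markers of B-lineage, myeloid, erythroid, epithelial and stromal cells were (CD79A, CSF1R and COL1A1). In RNA from whole cultures, fewer cells of a kind and less RNA per cell cannot be told apart.

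With the combination, 15 of the 40 genes fell and 1 rose against DMSO, while neither compound alone gave a call. Genes are said to rise, fall or be called where limma's p, adjusted over all 19775 genes by the Benjamini-Hochberg method, was under 0.05. The combination's 16 calls were a share of 40%, where 11.9% of all genes and 19.6% of the brighter genes were called, 5.52% of all genes and 9.23% of the brighter ones lower and 6.42% of all genes higher. PF-03084014 gave 0 calls among the 40, where 0.819% of all genes and 1.33% of the brighter ones were called, and dexamethasone gave 0, where 0.101% and 0.158% were called. At an unadjusted p under 0.05, PF-03084014 gave 20 genes lower and 1 higher, dexamethasone 7 lower and 1 higher, and the combination 27 lower and 2 higher, against 13.2%, 8.96% and 28.4% of all genes in either direction.

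The median log2 difference from DMSO over the 40 genes was -0.24 with PF-03084014, -0.05 with dexamethasone and -0.36 with the combination, beside 0.02, 0.01 and 0.06 over all genes. Mean level was lowest in the combination for 26 of the 40 genes, in PF-03084014 for 11 and in dexamethasone for 3. In no gene was it lowest in DMSO, where it was highest for 24. No share over all genes is given for these order counts. The second combination array alone was the lowest of the 8 for 21% of all genes and 31.9% of the brighter ones. Both treated arrays lay below both DMSO arrays for 35 genes with PF-03084014, for 18 with dexamethasone and for 31 with the combination, where 19.6%, 17.7% and 21.5% of all genes, and 24%, 19% and 29.8% of the brighter genes, did so. The treatments share the 2 DMSO arrays, so these counts are not independent of each other.

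**Figure D1:**
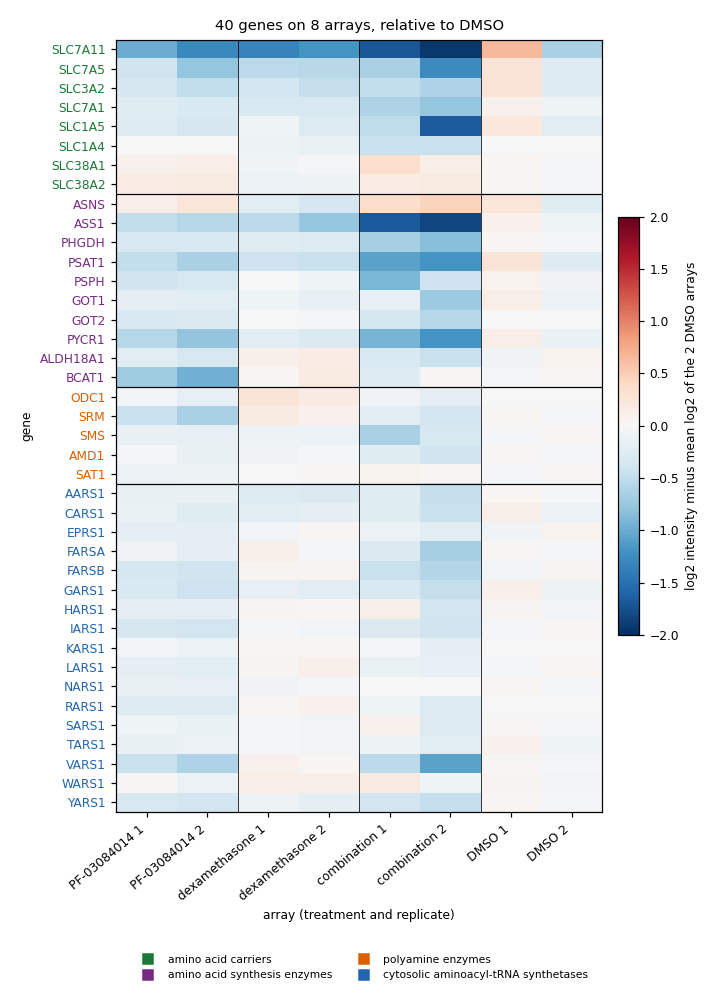
Log2 intensity of the 40 genes (rows, by class) on the 8 arrays (columns, by treatment and replicate), minus the mean log2 intensity of the 2 DMSO arrays; blue is lower and red is higher, with colours saturating at 2. The combination columns are darkest blue for SLC7A11 and ASS1, most synthetases are blue in the PF-03084014 and combination columns, and the first DMSO array is redder than the second for SLC7A11.

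The class medians were taken on each array. For the carriers, the median log2 difference from the DMSO mean was -0.25 and -0.32 with PF-03084014, -0.21 and -0.30 with dexamethasone and -0.50 and -0.69 with the combination, against 0.15 and -0.15 with DMSO. For the synthesis enzymes it was -0.36 and -0.32 with PF-03084014, -0.15 and -0.22 with dexamethasone and -0.51 and -0.64 with the combination, against 0.08 and -0.08 with DMSO. For these 2 classes each compound gave negative medians and the combination the lowest.

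Polyamine enzymes had medians of -0.12 and -0.17 with PF-03084014, -0.01 and 0.03 with dexamethasone and -0.22 and -0.31 with the combination, against values within 0.01 of 0 with DMSO. Synthetases had -0.19 and -0.20 with PF-03084014, -0.04 and -0.02 with dexamethasone and -0.13 and -0.39 with the combination, against 0.03 and -0.03 with DMSO. In both classes the dexamethasone arrays lay near DMSO. The second combination array had the lower median in every class.

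**Figure D2:**
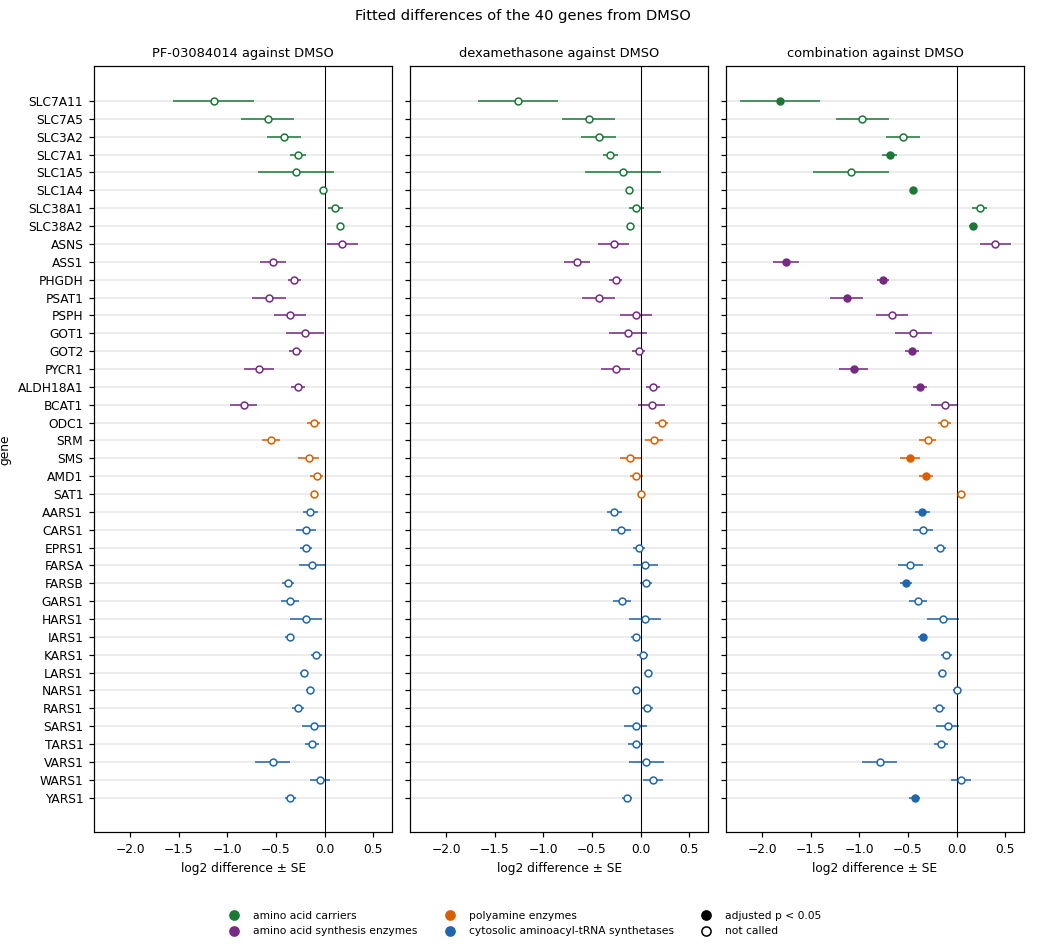
Fitted log2 difference from DMSO (horizontal axis, with standard error bars) for each of the 40 genes (rows, coloured by class) with PF-03084014, dexamethasone and the combination; filled points passed an adjusted p under 0.05. Filled points occur only in the combination panel, 15 below 0 and 1 above, and all 17 synthetases lie below 0 with PF-03084014.

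Among the carriers, SLC7A11, SLC7A1 and SLC1A4 fell with the combination and SLC38A2 rose, and the other 4 were not called in any contrast. SLC7A11, the cystine and glutamate exchanger that feeds glutathione synthesis, had intensities of 572 and 465 with PF-03084014, 452 and 497 with dexamethasone and 348 and 299 with the combination, against 1775 and 730 with DMSO. All 6 treated arrays lay below both DMSO arrays, which differed from each other by more than those of any other gene of the 40. The combination was 3.53-fold lower than DMSO (log2 difference -1.82 ± 0.41, standard error, n = 2 arrays each; limma adjusted p = 0.0496), and with PF-03084014 (-1.14 ± 0.41, adjusted p = 0.333) or dexamethasone (-1.26 ± 0.41, adjusted p = 0.46) the difference was not called. The call was lost in 7 of 8 fits with an array left out, where its adjusted p ranged from 0.019 to 0.154. The log2 difference was -1.18 with the first DMSO array left out, -2.46 with the second left out and -1.14 with the mean of its probe sets. Of 11 other processing settings, 3 kept the call of SLC7A11. It was lost under quantile normalization (limma adjusted p = 0.054) and with arrays shifted to 1 median (adjusted p = 0.0735), among others.

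SLC7A1, the main carrier of arginine and lysine, had 3819 and 3660 with PF-03084014, 3660 and 3639 with dexamethasone and 2966 and 2660 with the combination, against 4815 and 4257 with DMSO. Each compound gave values between those of the combination and of DMSO. The fall with the combination was 1.61-fold (-0.69 ± 0.080, limma adjusted p = 0.00876), and the differences with PF-03084014 (-0.28 ± 0.080) and dexamethasone (-0.31 ± 0.080) were not called. Its 2 other bright probe sets gave -1.96 and -1.53 for the combination, larger falls than the probe set used. SLC1A4, which carries alanine, serine and cysteine, had 1106 and 1106 with PF-03084014, 1038 and 1022 with dexamethasone and 823 and 819 with the combination, against 1108 and 1127 with DMSO. Its arrays agreed closely within every group, and the combination lay below both single compounds. It fell 1.36-fold against DMSO (-0.44 ± 0.036, limma adjusted p = 0.00402), 1.25-fold against dexamethasone (adjusted p = 0.016) and 1.35-fold against PF-03084014 (adjusted p = 0.0148). Of the 4 other probe sets of SLC1A4, 1 went the other way, by 0.06 against DMSO, 0.42 against dexamethasone and 0.05 against PF-03084014. The calls against both single compounds were lost with the mean of its probe sets and with arrays shifted to 1 median. Without _x_at and _s_at probe sets, the call against DMSO was lost as well as those against both single compounds.

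SLC38A2, a sodium-coupled carrier of glutamine and alanine, had 10115 and 10273 with PF-03084014, 8425 and 8513 with dexamethasone and 10115 and 10365 with the combination, against 9315 and 8909 with DMSO. The 4 arrays with PF-03084014 lay above the 4 without it. The rise with the combination was small, 1.12-fold against DMSO (0.17 ± 0.038, limma adjusted p = 0.0493) and 1.21-fold against dexamethasone (0.27 ± 0.038, adjusted p = 0.0225), and the call against DMSO was lost under quantile normalization (0.19, adjusted p = 0.0969) and with all arrays shifted to 1 median (0.04, adjusted p = 0.866). The shift also ended the call against dexamethasone (0.12, limma adjusted p = 0.498). Without that shift, the 2 other bright probe sets of SLC38A2 gave 0.27 and 0.29 against DMSO and 0.39 and 0.40 against dexamethasone. In a limma fit of all probe sets they were called in both contrasts. The related carrier SLC38A1 was also higher on all 4 arrays with PF-03084014 than on the 4 without. Its difference of 0.24 ± 0.075 for the combination against DMSO was not called (limma adjusted p = 0.112). The 2 other bright probe sets of SLC38A1 gave -1.37 and -0.04 with PF-03084014 against DMSO. With the combination they gave -1.74 and 0.16, so the direction rests on the probe set used.

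The exchanger of large neutral amino acids SLC7A5 and its heavy chain SLC3A2 had log2 differences of -0.97 ± 0.27 and -0.55 ± 0.18 with the combination against DMSO, neither of them called (adjusted p = 0.0862 and 0.115). SLC1A5, a carrier of glutamine, had 224 and 212 with PF-03084014, 251 and 221 with dexamethasone and 188 and 84.2 with the combination, against 310 and 230 with DMSO. The second combination array alone lay far below the others, and the difference of -1.09 ± 0.39 was not called (limma adjusted p = 0.145). Over the class, the gap between the first and second DMSO array had a median of 0.30 on the log2 scale, and the first was the higher for 7 of 8 carriers.

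**Figure D3:**
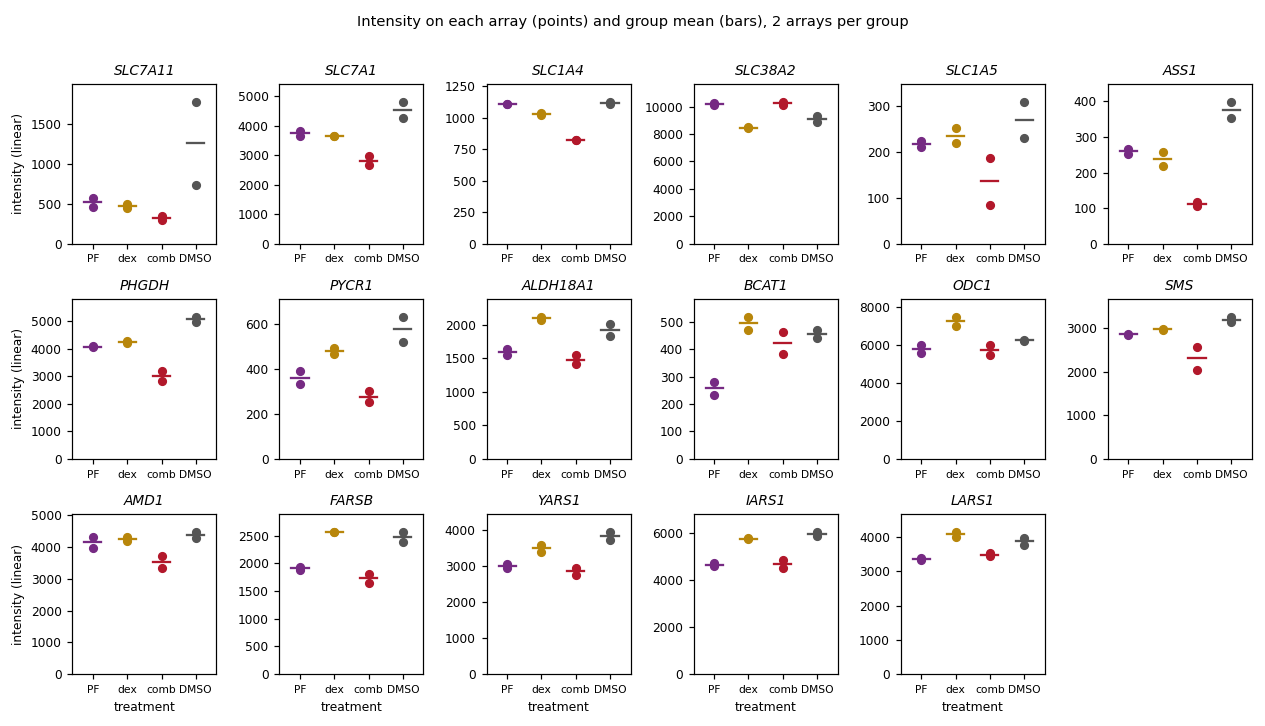
Intensity on a linear axis starting at 0 for the 17 of the 40 genes whose values on all 8 arrays are given in the text; points are single arrays, bars are means of 2 arrays, and PF, dex and comb stand for PF-03084014, dexamethasone and the combination. ASS1, PHGDH, PYCR1 and SLC7A1 are lowest with the combination, IARS1 and LARS1 are at like levels with PF-03084014 and the combination, and the 2 arrays stand well apart for SLC7A11 with DMSO and for SLC1A5 with the combination.

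Of the 10 synthesis enzymes, 6 fell with the combination against DMSO and 0 rose. ASS1, argininosuccinate synthase, which remakes arginine from citrulline, fell most: it had 267 and 253 with PF-03084014, 259 and 220 with dexamethasone and 117 and 106 with the combination, against 399 and 353 with DMSO. The groups did not overlap except for the 2 single compounds with each other. The combination was 3.37-fold lower than DMSO (-1.75 ± 0.13, limma adjusted p = 0.00393), 2.14-fold lower than dexamethasone (-1.10 ± 0.13, adjusted p = 0.0184) and 2.33-fold lower than PF-03084014 (-1.22 ± 0.13, adjusted p = 0.0231). PF-03084014 alone (-0.53 ± 0.13, adjusted p = 0.18) and dexamethasone alone (-0.65 ± 0.13, adjusted p = 0.264) were not called.

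The serine pathway runs from PHGDH, its first enzyme, through PSAT1 to PSPH. PHGDH had 4067 and 4075 with PF-03084014, 4267 and 4189 with dexamethasone and 3183 and 2807 with the combination, against 5156 and 4952 with DMSO. Single compounds gave nearly equal values between those of the combination and of DMSO. PHGDH fell 1.69-fold with the combination against DMSO (-0.76 ± 0.065, limma adjusted p = 0.00448), and also against dexamethasone (-0.50 ± 0.065, adjusted p = 0.0197) and PF-03084014 (-0.45 ± 0.065, adjusted p = 0.0383). PSAT1 fell 2.19-fold against DMSO (-1.13 ± 0.17, adjusted p = 0.0171), and PSPH had a difference of -0.67 ± 0.16 that was not called (adjusted p = 0.0618). The other bright probe set of PSPH gave -0.69 and was called in a limma fit of all probe sets. SLC1A4, ASS1 and PHGDH were the 3 genes called in all 3 contrasts of the combination.

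PYCR1 and ALDH18A1 make proline from glutamate, ALDH18A1 at the entry and PYCR1 at the last step. PYCR1 had 390 and 334 with PF-03084014, 497 and 469 with dexamethasone and 304 and 252 with the combination, against 635 and 523 with DMSO. Its levels were lowest with the combination, then PF-03084014, then dexamethasone, then DMSO, with no overlap, and the combination was 2.08-fold lower than DMSO (-1.06 ± 0.15, limma adjusted p = 0.0144). ALDH18A1 had 1639 and 1542 with PF-03084014, 2067 and 2117 with dexamethasone and 1546 and 1413 with the combination, against 1830 and 2013 with DMSO. Here the combination arrays overlapped those of PF-03084014, and dexamethasone lay above DMSO. It fell 1.30-fold with the combination against DMSO (-0.38 ± 0.071, limma adjusted p = 0.031) and 1.42-fold against dexamethasone (-0.50 ± 0.071, adjusted p = 0.0235). GOT2, the mitochondrial aspartate aminotransferase, fell as well (-0.46 ± 0.070 against DMSO, adjusted p = 0.0174), while its cytosolic counterpart GOT1 was not called (-0.44 ± 0.19, adjusted p = 0.21).

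By the probe sets used, BCAT1 and ASNS departed from the rest of the class. BCAT1, the cytosolic transaminase of branched-chain amino acids, had 280 and 234 with PF-03084014, 469 and 518 with dexamethasone and 380 and 463 with the combination, against 442 and 470 with DMSO. It was low with PF-03084014 alone (-0.83 ± 0.14, limma adjusted p = 0.0795), and the combination arrays overlapped those of DMSO (-0.12 ± 0.14, adjusted p = 0.618). Its other bright probe set had -0.71 with PF-03084014 and -0.47 with the combination, and -0.77 with the combination against dexamethasone. In a limma fit of all probe sets, both differences of the combination were called for it, so the probe sets differ on the combination. ASNS, which makes asparagine and is known as a determinant of the response to asparaginase in leukemia, was the member with the highest difference for the combination against DMSO (0.40 ± 0.16, adjusted p = 0.179) and against dexamethasone (0.67 ± 0.16, adjusted p = 0.0714), and neither was called. Its second probe set was dim and went the other way, with -0.27 against DMSO and -0.64 against dexamethasone.

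The polyamine enzymes moved less. SMS, spermine synthase, had 2873 and 2847 with PF-03084014, 2988 and 2963 with dexamethasone and 2047 and 2576 with the combination, against 3134 and 3268 with DMSO. AMD1, which makes the decarboxylated S-adenosylmethionine that spermidine and spermine synthesis consume, had 4318 and 3980 with PF-03084014, 4201 and 4325 with dexamethasone and 3718 and 3343 with the combination, against 4484 and 4297 with DMSO. For both genes the 2 combination arrays lay below the other 6, and both fell against DMSO, SMS 1.39-fold (-0.48 ± 0.11, limma adjusted p = 0.0476) and AMD1 1.25-fold (-0.32 ± 0.069, adjusted p = 0.0449). The second bright probe set of AMD1 gave a difference of -0.0043.

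ODC1, the first enzyme of the pathway and a textbook MYC target, had 6020 and 5567 with PF-03084014, 7514 and 7038 with dexamethasone and 5989 and 5489 with the combination, against 6247 and 6265 with DMSO. Dexamethasone gave the highest values (0.22 ± 0.066 against DMSO, limma adjusted p = 0.428, not called), and the combination lay at the level of PF-03084014. ODC1 fell 1.27-fold with the combination against dexamethasone (-0.34 ± 0.066, adjusted p = 0.044) and was not called against DMSO (-0.13 ± 0.066, adjusted p = 0.278). SRM, spermidine synthase, was lowest with PF-03084014 alone (-0.55 ± 0.091 against DMSO, adjusted p = 0.0791). SAT1, which acetylates polyamines for breakdown and export, differed from DMSO by -0.11 ± 0.034 with PF-03084014 and by 0.05 ± 0.034 with the combination, and was not called.

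All 17 synthetases had a log2 difference below 0 with PF-03084014, and for 16 of them both arrays lay below both DMSO arrays, though 0 were called. Among the 40 genes 37 lay below 0 with PF-03084014, 27 with dexamethasone and 35 with the combination, where 46.8%, 43.8% and 41.1% of all genes and 43.1%, 40.7% and 48% of the brighter genes did. The exception among the synthetases was WARS1, the tryptophanyl-tRNA synthetase, which had the difference closest to 0 (-0.05 ± 0.10). With dexamethasone 9 of 17 synthetases lay below 0. With the combination 16 lay below 0, the other being WARS1 (0.05 ± 0.10), and AARS1, FARSB, IARS1 and YARS1 fell. The other bright probe set of WARS1 gave -0.19 with PF-03084014 and -0.27 with the combination, so its exception rests on the probe set used. FARSB, the beta subunit of the phenylalanyl-tRNA synthetase, had 1940 and 1883 with PF-03084014, 2573 and 2562 with dexamethasone and 1809 and 1649 with the combination, against 2383 and 2568 with DMSO. All 4 arrays with PF-03084014 were below the 4 without it. FARSB fell 1.43-fold against DMSO (-0.52 ± 0.061, limma adjusted p = 0.00922) and 1.49-fold against dexamethasone (-0.57 ± 0.061, adjusted p = 0.015), and its alpha subunit FARSA had -0.48 ± 0.13 against DMSO (adjusted p = 0.0796). Both FARSB calls were lost with arrays shifted to 1 median, with the mean of its probe sets, and without _x_at and _s_at probe sets.

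IARS1, the isoleucyl-tRNA synthetase, whose promoter windows hold both motifs, had 4730 and 4609 with PF-03084014, 5800 and 5756 with dexamethasone and 4874 and 4518 with the combination, against 5895 and 6069 with DMSO. The values fall into 2 levels, one with PF-03084014 and one without. IARS1 fell 1.27-fold with the combination against DMSO (-0.35 ± 0.047, limma adjusted p = 0.0124) and 1.23-fold against dexamethasone (adjusted p = 0.0289), and with PF-03084014 alone it had the smallest adjusted p of the 40 genes, 0.0507 (-0.36 ± 0.047). LARS1, the leucyl-tRNA synthetase, had 3384 and 3336 with PF-03084014, 4019 and 4160 with dexamethasone and 3537 and 3452 with the combination, against 3777 and 3982 with DMSO. The LARS1 arrays with PF-03084014 also lay below those without it, but dexamethasone lay above DMSO and the combination above PF-03084014 alone. With the combination, LARS1 was called against dexamethasone (-0.23 ± 0.041, limma adjusted p = 0.0398) and not against DMSO (-0.15 ± 0.041, adjusted p = 0.0814). Its 3 other probe sets ran from -1.90 to 0.37 against dexamethasone, 1 of them in the other direction, and the call was lost in 7 of 8 fits with an array left out.

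YARS1, the tyrosyl-tRNA synthetase, had 3067 and 2952 with PF-03084014, 3586 and 3386 with dexamethasone and 2939 and 2755 with the combination, against 3951 and 3732 with DMSO. It fell 1.35-fold against DMSO (-0.43 ± 0.056, limma adjusted p = 0.0114), but its second bright probe set gave 0.06 against DMSO and 0.22 against dexamethasone, so the direction rests on 1 of 2 probe sets. AARS1, the alanyl-tRNA synthetase, fell 1.28-fold (-0.35 ± 0.079, adjusted p = 0.0485), a call that was lost with arrays shifted to 1 median. VARS1, the valyl-tRNA synthetase, had the largest difference of the class (-0.79 ± 0.18) and was not called, with an adjusted p of 0.0504. NARS1, the asparaginyl-tRNA synthetase, did not follow the class with the combination: its difference from DMSO rounded to 0 at 2 decimals, and it was -0.15 ± 0.037 with PF-03084014 alone.

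Counted after the values were seen, 20 of the 40 genes were lower on all 4 arrays with PF-03084014, alone or with dexamethasone, than on all 4 arrays without it, where 7.03% of all genes and 11.4% of the brighter genes were. They were 11 of the 17 synthetases (EPRS1, FARSA, FARSB, GARS1, IARS1, KARS1, LARS1, RARS1, TARS1, VARS1 and YARS1), 6 of the 10 synthesis enzymes (PHGDH, PSAT1, PSPH, GOT2, PYCR1 and ALDH18A1) and 3 of the 5 polyamine enzymes (ODC1, SRM and SMS), and 0 of the 8 carriers. By the probe sets used, SLC38A1 and SLC38A2 were the 2 that were higher on all 4, where 8.19% of all genes and 12% of the brighter genes were. The same count for dexamethasone gave 3 genes lower, SLC7A1, SLC1A4 and AARS1, and 0 higher, where 3.4% of all genes were lower and 3.42% higher, and 5.33% and 4.66% of the brighter ones. No test was made of these counts.

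The combination was also set against each single compound, to ask what the second compound added. Against dexamethasone, 11 genes fell and SLC38A2 rose, a share of 30% where 7.23% of all genes and 11.6% of the brighter ones were called, 3.97% of all genes and 6.67% of the brighter ones lower and 3.26% of all genes higher. Those that fell were SLC1A4, ASS1, PHGDH, GOT2, PYCR1, ALDH18A1, ODC1, FARSB, IARS1, LARS1 and YARS1. Against PF-03084014, SLC1A4, ASS1 and PHGDH fell and 0 rose, a share of 7.5% where 2.84% of all genes and 4.53% of the brighter ones were called, 1.75% of all genes and 2.94% of the brighter ones lower and 1.09% of all genes higher. Class medians against PF-03084014 were -0.40 for carriers, -0.27 for synthesis enzymes, -0.01 for polyamine enzymes and -0.02 for synthetases, and against dexamethasone they were -0.35, -0.50, -0.34 and -0.19. These contrasts share the combination arrays with each other and with the contrast against DMSO.

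Whether the compounds together gave more or less than the sum of their single log2 differences was asked with the interaction term. It was called for 0 of the 40 genes and for 0% of all genes, with 5 of the 40 and 9.06% of all genes at an unadjusted p under 0.05. The smallest adjusted p was that of SLC1A4, 0.319, whose combination difference of -0.44 stood beside a sum of -0.13 (interaction -0.31 ± 0.051). ASS1 had -1.75 beside a sum of -1.19 (interaction -0.57 ± 0.19, limma adjusted p = 0.496). The largest interactions by size were those of SLC1A5 (-0.61 ± 0.56, adjusted p = 0.727) and BCAT1 (0.60 ± 0.20, adjusted p = 0.487), with standard errors that leave wide ranges. The other bright probe set of BCAT1 gave an interaction of -0.06. The 4 other probe sets of SLC1A4 ran from -0.30 to 0.41, 2 of them with the same sign as the probe set used. The median interaction over the 40 genes was -0.01, beside 0 over all genes.

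How far the calls hold depends on the arrays. Standard errors pool 1 spread over all groups, while the combination arrays varied more: the median gap between the 2 arrays of a group, over the brighter genes, was 0.081 with PF-03084014, 0.077 with dexamethasone and 0.213 with the combination, against 0.095 with DMSO. The 16 calls of the combination against DMSO became 27 without combination replicate 1, 13 without combination replicate 2, 9 without either PF-03084014 array, 8 without either dexamethasone array, 7 without DMSO replicate 1 and 10 without DMSO replicate 2, and those of SLC7A1, SLC1A4, ASS1, PHGDH and FARSB held in all 8 of these fits. Against dexamethasone the 12 calls became 26 without combination replicate 1, 1 without either PF-03084014 array and 0 without either dexamethasone array. Against PF-03084014 the 3 calls became 13 without combination replicate 1, 1 without either DMSO array and 0 without any 1 of the PF-03084014 or dexamethasone arrays, and PF-03084014 against DMSO gained 4 calls without either combination array.

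**Figure D4:**
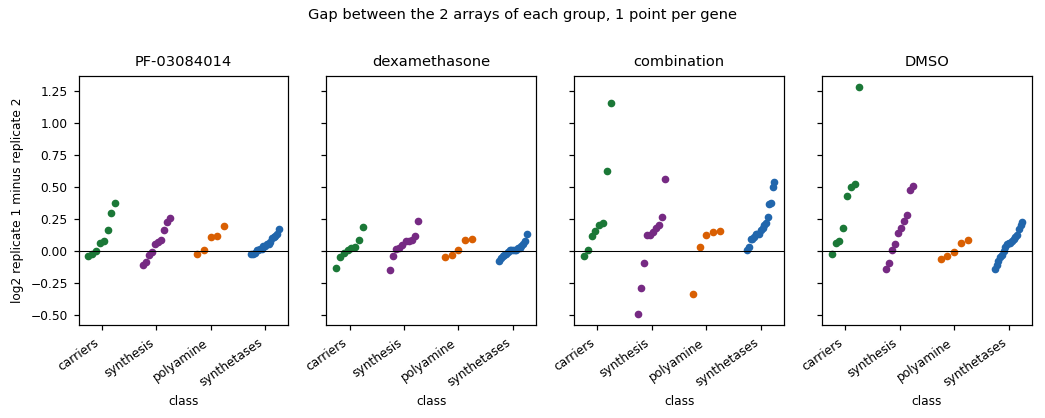
Log2 intensity of replicate 1 minus replicate 2 (vertical axis) for each gene of the 4 classes in each group; each point is 1 gene, sorted within its class. In the combination panel all 17 synthetases lie above 0, and in the DMSO panel SLC7A11 is the carrier far above the others.

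The motifs were set beside these values as a description. The 14 genes with TGATGNAA had a median log2 difference from DMSO of -0.20 with PF-03084014, -0.15 with dexamethasone and -0.35 with the combination, and the 20 genes with a window and no match had -0.19, 0.00 and -0.31. With the combination, 4 of the 14 fell (SLC7A1, SLC1A4, AARS1 and IARS1), as did 8 of the 20. The 8 genes with CACGTG had medians of -0.44 with PF-03084014, 0.03 with dexamethasone and -0.36 with the combination, and the 26 without had -0.16, -0.05 and -0.33. With the combination, 3 of the 8 fell (ASS1, ALDH18A1 and IARS1), as did 9 of the 26. MYC itself had log2 differences from DMSO of -0.31 ± 0.10 with PF-03084014 (limma adjusted p = 0.28), 0.07 ± 0.10 with dexamethasone (adjusted p = 0.956) and -0.24 ± 0.10 with the combination (adjusted p = 0.19), and was not called.

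Of 13 regulators and targets of the response to amino acid shortage, 4 fell with the combination against DMSO and 0 rose, and 0 were called with either compound alone. In that contrast 5.52% of all genes and 9.23% of the brighter ones were called lower, and 6.42% of all genes higher; the same shares stand behind the counts of the other lists. TRIB3, a pseudokinase induced by ATF4, had 2255 and 2226 with PF-03084014, 2504 and 2383 with dexamethasone and 1612 and 1752 with the combination, against 2483 and 2499 with DMSO. It was lowest with the combination (-0.57 ± 0.052, limma adjusted p = 0.00502). Both PF-03084014 arrays also lay below both DMSO arrays, without a call. VLDLR, a lipoprotein receptor in the list as an ATF4 target, fell by 1.15 on the log2 scale, the transcription factor CEBPB by 0.91 and the kinase EIF2AK4 (GCN2), which senses uncharged transfer RNA, by 0.26. ATF4 itself had -0.15 ± 0.094 (adjusted p = 0.348), DDIT3 -0.54 ± 0.17 (adjusted p = 0.106) and CHAC1, which degrades glutathione, -1.83 ± 0.43 (adjusted p = 0.0552), none of them called. CHAC1 was dim, with 26.9 and 22.7 with the combination against 129 and 59.7 with DMSO.

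Other genes of the pathways moved in both directions with the combination. Among 15 other amino acid carriers, 3 rose and 3 fell, where 6.42% of all genes rose and 5.52% fell. SLC7A6, a carrier of cationic and neutral amino acids, had 1661 and 1824 with PF-03084014, 1726 and 1861 with dexamethasone and 2940 and 3092 with the combination, against 1397 and 1412 with DMSO. It rose 2.15-fold against DMSO (1.10 ± 0.064, limma adjusted p = 0.0026) and was also called against both single compounds. SLC43A2, a carrier of neutral amino acids, rose by 1.22 (adjusted p = 0.0389), while SLC38A5, a glutamine carrier, fell by 1.16 (adjusted p = 0.0348) from a dim level and the mitochondrial ornithine carrier SLC25A15 fell by 0.63 (adjusted p = 0.0263).

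Of 15 other genes of amino acid synthesis and use, 5 fell and 2 rose. ARG2, the mitochondrial arginase, which makes ornithine from arginine, had 677 and 678 with PF-03084014, 913 and 878 with dexamethasone and 319 and 235 with the combination, against 966 and 1486 with DMSO, a 4.38-fold fall with the combination (-2.13 ± 0.24, limma adjusted p = 0.00791). CBS, which starts the conversion of homocysteine to cysteine, fell by 1.87 (adjusted p = 0.00814) from a low level. PRODH, the first enzyme of proline breakdown, was under the floor of 16 on both DMSO arrays and was at least 3.13-fold higher with the combination (limma adjusted p = 0.0472), and ASL, the step after ASS1, rose by 0.49 (adjusted p = 0.0475). ASS1 and ASL, neighbours in arginine synthesis, were thus called in opposite directions.

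Of the 15 mitochondrial synthetases measured, EARS2 (-0.66 ± 0.11), LARS2 (-0.38 ± 0.062) and NARS2 fell with the combination and 0 rose, a share of 20%. Among all genes 5.52% were called lower and 11.9% in either direction, and among the brighter ones 9.23% and 19.6%. The count is small, and its difference from these shares was not tested. Of the 15, 11 lay below 0 with PF-03084014 and 1 with dexamethasone, where 46.8% and 43.8% of all genes did. AIMP1, a scaffold of the synthetase complex, was not called (-0.25). Of 12 other polyamine genes, limma called 0 in any contrast, with 3 at an unadjusted p under 0.05 for the combination against DMSO. In all of these lists PF-03084014 and dexamethasone alone gave 0 calls by limma. At an unadjusted p under 0.05, PF-03084014 gave 3 of the mitochondrial synthetases, 5 of the other carriers, 6 of the other synthesis genes, 2 of the other polyamine genes and 5 of the regulators, and dexamethasone gave 1, 2, 3, 0 and 2. Among all genes, 13.2% reached that threshold with PF-03084014, 8.96% with dexamethasone and 28.4% with the combination. Differences of the lists from these shares were not tested.

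**Figure D5:**
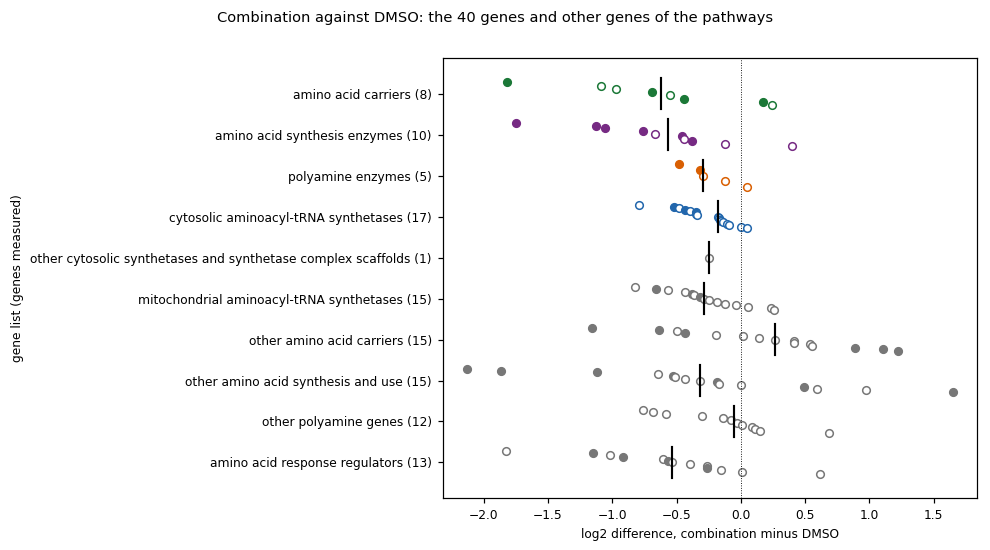
Log2 difference of the combination from DMSO (horizontal axis) for the 4 classes of the 40 genes (coloured) and for the other genes of the pathways (grey), 1 point per gene, filled where the adjusted p was under 0.05; the black bar is the median of each list. The medians of all 4 classes lie below 0, from -0.62 for carriers to -0.18 for synthetases, and the other carriers have a median of 0.26.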

How the data were processed

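Total RNA (200 ng per sample) was hybridised to 8 Affymetrix arrays, per the labels' protocols. The intensity values were deposited by the authors as linear probe-set signals; how they were summarised and normalized is not given in the sources used here. Probe sets were named through the platform annotation, with symbols updated through gene identifiers to RefSeq. Of 54675 probe sets, 1801 with several genes and 11777 with none were left out, which left 41097 for 19775 genes, each represented by its probe set with the highest mean log2 value. Intensities were floored at 16 and log2-transformed. limma 3.58.1 (R 4.3.3) was fitted to all 8 arrays with 1 mean for each group, an intensity trend and 4 residual degrees of freedom, and p-values were adjusted by Benjamini-Hochberg over all genes in each of 6 contrasts. The scripts were tested on simulated data. Arrays carry no read depth; with 2 arrays a group their number limits precision. The 40 genes and the other lists were chosen with earlier results of these data known. Members given on all 8 arrays were up to 4 called genes per class by smallest p and the 2 largest interactions; TRIB3, SLC7A6 and ARG2, which are no members, were given so after their values were seen. Alternatives covered normalization, floor, pseudocount, dim genes, probe sets, the variance trend, the arrays in the fit and the replicate number; the closing section gives their effect. Figures were drawn with matplotlib 3.10.9.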

Additional observations from a re-analysis of the deposited data

How the results depend on the processing

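Calls among the 40 genes depended on the settings. For PF-03084014 against DMSO the count of 0 became 2 under quantile normalization, 4 with log2 of intensity plus 16, 6 among genes with a mean intensity of at least 100, 2 with the replicate block, and 5 with combination replicate 2 left out and the other 7 arrays quantile normalized; leaving out 1 array gave 0 to 4. Dexamethasone gave 0 under every setting tried. For the combination against DMSO the 16 calls became 8 with arrays shifted to 1 median, 25 among brighter genes, 4 without probe sets ending in _x_at or _s_at (27 of the 40 genes, and 10 of these 16, 7 of the 12 against dexamethasone and 2 of the 3 against PF-03084014, had a probe set left), 10 with no intensity trend and 0 with only the groups compared in the fit, which called 0 of all genes; leaving out 1 array gave 7 to 27. Against dexamethasone the 12 became 3 with shifted arrays, 20 with log2 of intensity plus 16, 22 among brighter genes, 7 with the mean of a gene's probe sets, 3 without those probe sets, 5 with no trend and 0 with only the groups compared; leaving out 1 array gave 0 to 26. Against PF-03084014 the 3 became 1 with shifted arrays, 5 with log2 of intensity plus 16, 5 among brighter genes, 1 with the mean of probe sets, 1 without those probe sets and 0 with only the groups compared; leaving out 1 array gave 0 to 13. The interaction's 0 became 0 to 1, the 1 being SLC1A4 without combination replicate 1. Deviations of same-numbered arrays correlated between -0.0103 and 0.0816 over all genes and between 0.0495 and 0.207 over the brighter genes, where all pairs of groups but PF-03084014 with dexamethasone were above 0.1; as not every pair was, and the labels name no shared culture or day, the numbers were not taken to pair the arrays. The replicate block gave 18, 15 and 3 calls for the combination against DMSO, dexamethasone and PF-03084014. Among single calls, 203 of 329 values under other settings and 114 of 248 with 1 array left out kept the call. With no intensity trend, SLC7A11, SLC38A2, ALDH18A1, SMS, AMD1 and AARS1 lost their calls against DMSO. SLC38A2, GOT2, PYCR1, ODC1, IARS1, LARS1 and YARS1 then lost theirs against dexamethasone. With arrays shifted to 1 median, SLC7A11, SLC38A2, GOT2, ALDH18A1, AMD1, AARS1, FARSB, IARS1 and YARS1 lost their calls against DMSO. Under that shift, ASS1 alone among the 12 genes called against dexamethasone kept its call. YARS1 reversed without probe sets ending in _x_at or _s_at, to 0.063 against DMSO and 0.22 against dexamethasone, where its other probe set was used. Medians below run carriers, synthesis enzymes, polyamine enzymes and synthetases. With the mean of probe sets, synthetases moved to -0.27 (PF-03084014), -0.35 (combination) and -0.093 (combination against PF-03084014), synthesis enzymes to -0.073 (dexamethasone), polyamine enzymes to -0.18 (combination) and -0.14 (interaction), and carriers to -0.13 against dexamethasone. Without _x_at and _s_at sets, carriers moved to -0.42 (dexamethasone), -1.09 (combination), -0.55 (against dexamethasone) and -0.68 (against PF-03084014), synthesis enzymes to -0.021 (dexamethasone) and -0.44 (combination), polyamine enzymes to 0.14 (dexamethasone) and synthetases to -0.12 (against dexamethasone). Shifting arrays to 1 median moved the median gene by -0.13 for the combination against DMSO and against PF-03084014 and by -0.15 against dexamethasone and in the interaction; the combination then gave -0.69, -0.43 and -0.31 for the last 3 classes, -0.50, -0.65, -0.50 and -0.34 against dexamethasone, -0.40, -0.14 and -0.15 for the last 3 against PF-03084014 and -0.023, -0.29, -0.34 and -0.12 in the interaction. With combination replicate 2 left out and quantile normalization, polyamine enzymes moved to -0.22 (combination) and -0.10 (interaction), carriers to -0.19 against dexamethasone and -0.13 against PF-03084014, synthesis enzymes to -0.15 against PF-03084014 and -0.036 in the interaction, and synthetases to -0.091 against dexamethasone and 0.11 in the interaction. With 1 array left out, medians ran from -0.44 to -0.12, -0.38 to -0.30, -0.17 to -0.11 and -0.22 to -0.13 for PF-03084014; -0.40 to -0.15, -0.27 to -0.025, -0.01 to 0.03 and -0.04 to 0.00 for dexamethasone; -0.80 to -0.50, -0.65 to -0.51, -0.34 to -0.22 and -0.39 to -0.13 for the combination; -0.39 to -0.21, -0.58 to -0.42, -0.38 to -0.28 and -0.25 to -0.10 against dexamethasone; -0.46 to -0.15, -0.39 to -0.15, -0.077 to 0.049 and -0.12 to 0.047 against PF-03084014; and -0.079 to 0.18, -0.25 to -0.052, -0.22 to -0.046 and -0.053 to 0.11 in the interaction. The cause of these shifts was not tested.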
